A study of Mus musculus with 16 samples.

Results

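The effect of losing Brg1 on chromatin accessibility was examined in MHC class II-high medullary thymic epithelial cells (mTEChi). The comparison set 2 Brg1-/- mTEChi libraries against 2 Brg1+/+ mTEChi libraries, in all regions of the deposited table whose mean signal over these 4 libraries was at least 7.5. This kept 219521 of 250313 regions, each 500 bp wide, on the 19 autosomes and chromosome X of the mouse mm9 build. The assay was ATAC-seq, which marks open DNA by letting the transposase Tn5 insert adapters there. All mice were labelled C57BL/6 and 4 weeks old, and 60000 cells per library were sorted from digested thymus as negative for DAPI and CD45, positive for EpCAM and UEA and low for Ly51. The same table holds Brg1-/- and Brg1+/+ cells with low MHC class II (mTEClo), and Aire-/- and Aire+/+ cells of both sorts, with 2 libraries in each of the 8 groups. The sources used here do not say how Brg1 was deleted or name a Cre driver. Brg1+/+ libraries carry the word NOCRE in their descriptions, so Cre itself may differ between the genotypes, and this cannot be told apart from the loss of Brg1. Nothing in the labels says that replicate libraries are from different mice, so p-values measure the spread between these libraries, which may be technical.

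Brg1, encoded by Smarca4, is an ATPase of the SWI/SNF (BAF) remodelling complexes, which use ATP to slide or evict nucleosomes and so open enhancers and promoters to transcription factors. Some SWI/SNF complexes carry the related ATPase Brm in its place. Medullary thymic epithelial cells display antigens of many peripheral tissues to developing T cells. The mTEChi stage holds most cells with Aire, a nuclear protein that drives much of this ectopic transcription, and mTEClo includes less mature medullary cells. Because each library is a bulk of many cells, a lower signal at a region may come from fewer cells with the region open or from less opening per cell, and these cannot be told apart.

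The Brg1 mTEChi libraries varied widely between replicates, and this sets the precision of what follows. Over the 219521 regions, the correlation of log2 signal was 0.56 between the Brg1-/- libraries and 0.67 between the Brg1+/+ libraries, against 0.57 to 0.62 between libraries of different genotype. The median absolute difference between replicates, in log2 units, was 0.73 in Brg1-/- and 0.68 in Brg1+/+ over all regions. In the decile of regions with the highest signal it was 0.29 in Brg1-/- and 0.32 in Brg1+/+. The libraries also differed in their low values. Median signal over the whole table was 15.4 and 19.8 in the Brg1-/- libraries and 11.8 and 13.3 in the Brg1+/+ libraries, whereas all 4 had a 99th percentile of 213.9 to 217.3. Signal under 5 was found at 5.94% and 4.19% of the regions in Brg1-/- and at 10.99% and 8.52% in Brg1+/+. Low values were repeated across many regions, as 19338 regions of the whole table shared the value 6.476 in Brg1-/- replicate 1. Depth per library is unknown. Accessibility at Smarca4 and at marker loci of the sorts was not analysed here, so genotypes and sorts rest on the labels.

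Few single regions separated the genotypes beyond this spread. Of 219521 regions, 8 passed a limma test fitted across all libraries at an adjusted p under 0.05, which is 0.00364% of those tested. Accessibility was higher in Brg1-/- than in Brg1+/+ mTEChi at 4 of them and lower at the other 4, or 0.00182% in each direction. At an unadjusted limma p under 0.05 there were 14775 of the 219521. With no difference at any region, a share of about 0.05 of them would be under that threshold. The split depended on how the libraries were scaled, with 1 higher and 4 lower after quantile normalization, 1 higher and 4 lower after cyclic loess normalization, and 0 higher and 4 lower after re-centring each library on its median. All 8 lost their call when the fit held only the 8 mTEChi libraries, only the 8 Brg1-line libraries or only the 4 libraries compared, so each call rests on a spread estimated over both sorts and both lines. An exact permutation of 2 against 2 libraries cannot give a two-sided p below 1 in 3.

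The 4 regions with higher accessibility in Brg1-/- had little signal in Brg1+/+ mTEChi. On chromosome 17 from 81415043 to 81415542, signal was 51.2 and 47.8 in Brg1-/- and 3.78 and 2.26 in Brg1+/+ mTEChi. This was the widest separation upward, with a log2 fold change of 3.68 (SE 0.62, limma adjusted p = 0.0326), and both Brg1-/- libraries stood far above both Brg1+/+ libraries. On chromosome 8 from 107426616 to 107427115, signal was 37.6 and 22.3 in Brg1-/- against 1.53 and 2.84 in Brg1+/+ (log2 fold change 3.27, SE 0.55, limma adjusted p = 0.0326). On chromosome 18 from 47369314 to 47369813, the Brg1-/- libraries held 25.8 and 59.9 and the Brg1+/+ libraries 5.80 and 2.04 (log2 fold change 3.15, SE 0.51, limma adjusted p = 0.0212). The genotypes did not overlap there, although the Brg1-/- replicates were far apart. On the same chromosome from 55012628 to 55013127, signal was 38.8 and 38.5 in Brg1-/- and 6.43 and 6.65 in Brg1+/+ (log2 fold change 2.40, SE 0.41, limma adjusted p = 0.0424). Replicates almost coincided within each genotype, although 9354 regions of the whole table shared that value in Brg1+/+ replicate 1 and 2039 in replicate 2. Often repeated Brg1+/+ values were also found on chromosome 8 (2.84, at 5986 regions) and at 47369314 (5.80, at 7033 regions). On chromosome 17 the Brg1+/+ values were shared by 102 and 372 regions. Gene annotation of the mm9 build was not used here, so no gene, promoter or exon is attached to any of these positions.

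The 4 regions with lower accessibility in Brg1-/- included 2 with almost no signal in Brg1-/- mTEChi. On chromosome 11 from 41751294 to 41751793, signal was 2.01 and 1.90 in Brg1-/-, against 47.0 and 24.0 in Brg1+/+ mTEChi. The log2 fold change was -3.55 (SE 0.43), and the limma adjusted p of 0.000304 was the smallest of any region. On chromosome 9 from 98238481 to 98238980, signal was 2.12 and 1.99 in Brg1-/- and 38.7 and 49.4 in Brg1+/+ (log2 fold change -3.87, SE 0.57, limma adjusted p = 0.0105). Both regions lay between the percentiles 1.94 and 4.09 of all tested regions in the Brg1-/- libraries. The value 1.99 is the one that Brg1-/- replicate 2 lists most often, at 7828 regions of the whole table. In Brg1-/- replicate 1, 4324 regions shared the value of the chromosome 11 region and 2201 that of the chromosome 9 region. The chromosome 11 value in replicate 2 was shared by 251. The other 2 regions had a moderate signal in Brg1-/-. On chromosome 15 from 9407262 to 9407761, signal was 10.1 and 29.9 in Brg1-/- and 118.8 and 110.6 in Brg1+/+ (log2 fold change -2.64, SE 0.41, limma adjusted p = 0.0171). The fourth region, on chromosome 7 from 139319158 to 139319657, had signal of 25.4 and 34.2 in Brg1-/-, against 106.6 and 134.5 in Brg1+/+ (log2 fold change -1.99, SE 0.30, limma adjusted p = 0.0145). In the Brg1+/+ libraries these 2 lay between the percentiles 95.5 and 96.9. Every Brg1-/- library was below every Brg1+/+ library at all 4 regions.

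Many of these calls were lost when any 1 of the 4 libraries was left out. Such a fit leaves 1 library in a group and so has less power. This cannot be told apart from the influence of the library left out. Without Brg1+/+ replicate 1, the count was 3 higher and 0 lower, and without Brg1+/+ replicate 2 it was 5 higher and 1 lower. Without Brg1-/- replicate 1 it was 1 higher and 24 lower, and without Brg1-/- replicate 2 it was 0 higher and 6 lower. Of the original 8, these 4 fits kept 1, 1, 3 and 3, in the order given. The chromosome 11 region passed in 17 of 21 alternative fits, the most of the 8, and the chromosome 18 region at 55012628 passed in 8 of 21, the fewest. The sign of the fold change was the same in all 21 fits for each of the 8.

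**Figure D1:**
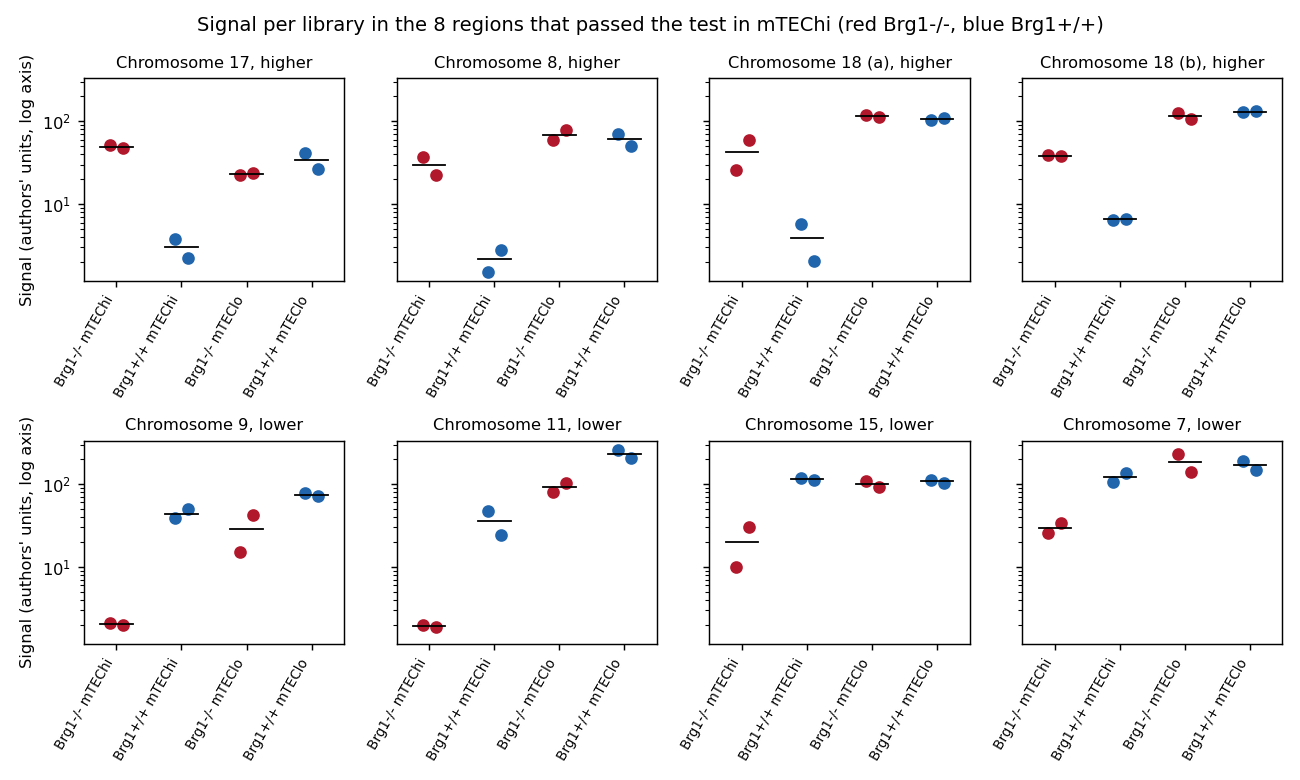
Signal in each library (log axis, authors' units) at the 8 regions that passed the limma test in mTEChi, for Brg1-/- (red) and Brg1+/+ (blue) in mTEChi and mTEClo; each point is 1 library and each line the mean of 2. The panels of chromosome 18 show the regions starting at 47369314 (a) and 55012628 (b). The Brg1+/+ mTEChi points at the 4 higher regions all lie under 7 while the mTEClo points lie between 22.4 and 132.6.

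The 4 Aire-line mTEChi libraries do not enter the Brg1 difference, and their levels were set beside those of both genotypes at these 8 regions. At the 4 higher regions, Brg1-/- lay nearer than Brg1+/+ to the mean of the 4 Aire-line mTEChi libraries. On chromosome 17 the Aire-line libraries held 30.3 to 49.8, near the 51.2 and 47.8 of Brg1-/- and far above the 3.78 and 2.26 of Brg1+/+. On chromosome 8 they held 31.7 to 52.8, on chromosome 18 at 47369314 they held 15.7 to 27.4, and at 55012628 they held 23.8 to 32.5. The Brg1+/+ libraries were thus below all 4 Aire-line libraries at each of these regions. At 55012628, both Brg1-/- libraries, with 38.8 and 38.5, were also outside the Aire-line range, above all 4. At the 4 lower regions, Brg1+/+ lay nearer to the Aire-line mean. On chromosome 11 the Aire-line libraries held 31.9 to 49.9, on chromosome 9 they held 29.9 to 75.4, and on chromosome 7 they held 108.7 to 118.8. On chromosome 15 they held 46.6 to 99.2, which put both Brg1+/+ libraries above and both Brg1-/- libraries below all 4. Over all regions, Brg1-/- was nearer to the Aire-line mean at 44.4% and Brg1+/+ at 55.6%. Where Brg1-/- was at least 1 log2 unit higher without overlap, Brg1-/- was nearer at 44.5% and Brg1+/+ at 55.5%. Where it was at least 1 log2 unit lower without overlap, Brg1-/- was nearer at 28.7% and Brg1+/+ at 71.3%. In the top 3 deciles of Aire+/+ mTEChi signal, Brg1-/- was nearer at 76.0% and Brg1+/+ at 24.0% of the higher regions, and Brg1-/- at 9.41% and Brg1+/+ at 90.6% of the lower ones. These deciles were ranked on libraries that also make up the Aire-line mean, so a high Aire-line level was selected there and the higher genotype is favoured as the nearer one. The 8 called regions all lay in deciles 6 to 10 of the same signal, with 1 genotype far below the other. The higher genotype may therefore be favoured as the nearer one at them too, but this was not tested. The chromosome 18 regions, in deciles 6 and 7, lie outside the top 3 deciles.

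The same 8 regions in mTEClo differed less between genotypes. These regions were picked for their difference in mTEChi, so a smaller difference in another sort is likely from that choice alone. At the 4 higher regions the mTEClo log2 fold changes were -0.51 on chromosome 17, 0.18 on chromosome 8, and 0.12 and -0.17 on chromosome 18. At chromosome 18 from 55012628 to 55013127, for example, mTEClo signal was 126.9 and 105.5 in Brg1-/- and 128.4 and 132.6 in Brg1+/+. At the lower regions, the chromosome 11 region held 80.2 and 104.0 in Brg1-/-, against 255.3 and 203.9 in Brg1+/+ mTEClo (log2 fold change -1.31, SE 0.34, limma adjusted p = 0.245). The chromosome 9 region held 15.3 and 42.1 in Brg1-/-, against 78.0 and 70.8 in Brg1+/+ mTEClo (log2 fold change -1.51, SE 0.46, limma adjusted p = 0.328). At both, Brg1-/- was below Brg1+/+ in each sort without overlap, but neither passed the test in mTEClo. The chromosome 15 and 7 regions had mTEClo log2 fold changes of -0.13 and 0.09. The difference of the Brg1 effect between the sorts was 4.18 log2 units at chromosome 17 (SE 0.79, limma adjusted p = 0.421) and did not pass at any of the 8, with adjusted p between 0.421 and 0.640.

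No other region within 50 kb of a called one passed the test. Within 50 kb of the chromosome 17 region lay 10 other tested regions, of which 8 had the same sign and the median log2 fold change was 0.63. Around the chromosome 8 region, 3 of 6 neighbours had the same sign (median -0.05), and around both chromosome 18 regions 10 and 11 of 14 did (median 0.27 at each). Over all regions, 62.0% of fold changes were positive. Around the chromosome 15 region, 3 of 13 neighbours were lower in Brg1-/-, and the nearest, 520 bp away, had 30.1 and 22.6 in Brg1-/-, against 11.8 and 11.4 in Brg1+/+ (log2 fold change 1.10, limma adjusted p = 0.826). At chromosome 7, 7 of 21 neighbours were lower. A region 4288 bp away held 18.8 and 13.5 in Brg1-/-, against 53.6 and 35.4 in Brg1+/+ (log2 fold change -1.39, limma adjusted p = 0.608). At chromosome 9, 7 of 17 neighbours were lower, and at chromosome 11, 1 of 2, with the nearest 29005 bp away.

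Many regions with larger or equally large differences did not pass. Among regions with at least the median mean signal of 17.6 and no overlap between genotypes, the largest upward difference that did not pass was on chromosome 14 from 68249889 to 68250388. Signal there was 46.2 and 41.5 in Brg1-/- and 1.48 and 2.29 in Brg1+/+ (log2 fold change 3.97, SE 1.08, limma adjusted p = 0.504). This is larger than any called upward difference, and the SE is larger too. On chromosome 7 from 123788638 to 123789137, signal was 63.2 and 59.3 in Brg1-/- and 1.49 and 6.65 in Brg1+/+ (log2 fold change 3.84, limma adjusted p = 0.108). The other 4 chosen in this direction, on chromosomes 4, 15, 16 and 2, had log2 fold changes of 3.88, 3.88, 3.85 and 3.83 and limma adjusted p from 0.239 to 0.592. Downward, the largest belonged to chromosome 4 from 126994287 to 126994786, where signal was 2.01 and 1.99 in Brg1-/- and 27.5 and 55.3 in Brg1+/+ (log2 fold change -3.74, limma adjusted p = 0.143). On chromosome 7 from 71724232 to 71724731, signal was 9.84 and 1.65 in Brg1-/- and 60.8 and 60.4 in Brg1+/+ (log2 fold change -3.52, limma adjusted p = 0.143). The other 4, 2 on chromosome 2 and 2 on chromosome 14, had log2 fold changes of -3.35, -3.32, -3.32 and -3.30.

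Regions of high signal were read with the least replicate error. Among regions with a mean of at least 62.1, the 90th percentile, the smallest p values downward belonged to the called chromosome 7 and 15 regions. Next came a region on chromosome 13 from 112001095 to 112001594, with 75.5 and 40.8 in Brg1-/- and 166.5 and 131.4 in Brg1+/+ (log2 fold change -1.40, limma adjusted p = 0.210). On chromosome 12 from 112624628 to 112625127, which was among the regions more open in Aire+/+ mTEChi than mTEClo, signal was 44.7 and 55.3 in Brg1-/- and 164.1 and 137.6 in Brg1+/+ (log2 fold change -1.58, limma adjusted p = 0.239). In mTEClo the same region held 142.3 and 99.4 in Brg1-/-, against 93.1 and 94.2 in Brg1+/+. On chromosome 16 from 86516438 to 86516937, signal was 30.8 and 29.8 in Brg1-/- and 110.2 and 87.4 in Brg1+/+ mTEChi (log2 fold change -1.66, limma adjusted p = 0.239). The smallest p upward belonged to chromosome 14 from 55519221 to 55519720, where signal was 141.9 and 101.6 in Brg1-/- and 35.7 and 10.8 in Brg1+/+ (log2 fold change 2.54, limma adjusted p = 0.0949). On chromosome 13 from 63173627 to 63174126, signal was 153.0 and 166.6 in Brg1-/- and 76.1 and 25.3 in Brg1+/+ (log2 fold change 1.83, limma adjusted p = 0.143). The Brg1+/+ replicates were far apart in both of these upward regions, yet neither reached the Brg1-/- libraries. The other 3 upward regions, on chromosomes 14, 1 and 9, had log2 fold changes of 2.15, 1.54 and 1.57.

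Over all regions, the difference between genotypes leaned upward as the values were deposited. The median log2 fold change was 0.24. It lay within 0.5 of 0 at 45623 regions on the lower side and 52991 on the higher side. A fold change above 2 log2 units was found at 7151 regions (3.26%) and one below -2 at 1519 (0.692%). Both Brg1-/- libraries lay above both Brg1+/+ libraries at 55812 regions (25.4%) and below both at 25074 (11.4%). If genotype made no difference, 2 against 2 libraries would be without overlap at about 1 in 3 of regions, split evenly between the directions. Shares without overlap, here and below, are to be read against this. With a difference of at least 1 log2 unit as well, the counts were 33495 (15.3%) and 10437 (4.75%), and with at least 2 log2 units they were 7040 (3.21%) and 1479 (0.674%). This lean followed the scaling. The median became 0.00024 after quantile normalization, -0.0105 with cyclic loess and -0.11 when libraries were re-centred. The regions above and below without overlap then made 17.3% and 18.3% after quantile normalization. Cyclic loess gave 17.0% and 18.5%, and re-centring gave 14.6% and 22.3%. Fold changes below are therefore best read against the median of the other regions.

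**Figure D2:**
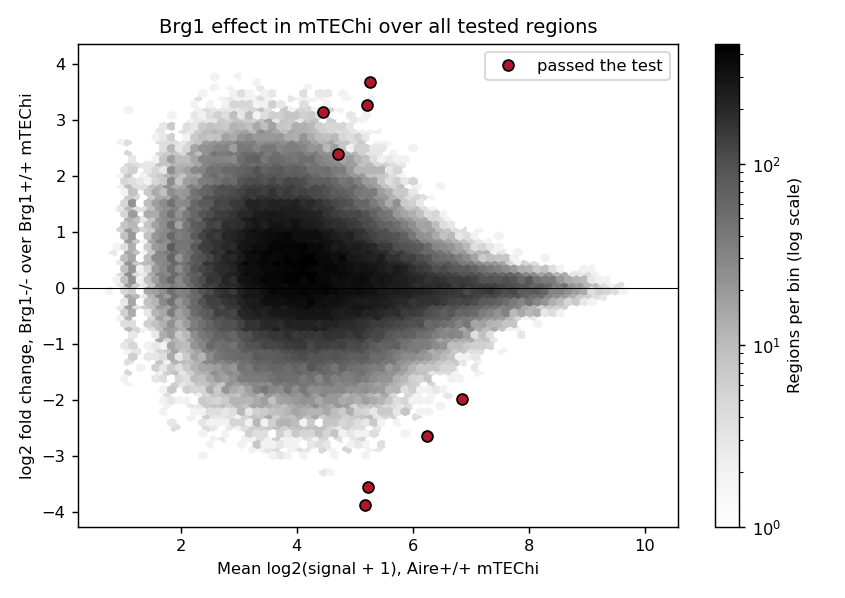
Log2 fold change of Brg1-/- over Brg1+/+ mTEChi (vertical axis) against mean log2(signal + 1) in Aire+/+ mTEChi libraries, which the difference does not use (horizontal axis), for 219521 regions binned by density (grey, log scale), with the 8 regions that passed the test in red. The spread of fold changes narrows toward high signal, and the bulk at low signal lies above 0.

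Fold changes at single regions were poorly repeated between pairs of libraries. The Brg1-/- minus Brg1+/+ difference of the replicates numbered 1 and that of the replicates numbered 2 share no library. Across the 219521 regions they correlated with an r of 0.057, and the crossed pairs with 0.052. In the top 3 deciles of signal the values were 0.074 and 0.084. Regions are not independent replicates, and these are descriptions. Adjacent regions within 1 kb, 48711 pairs, had fold changes that correlated with an r of 0.041, against 0.016 beyond 50 kb. By the same measure within 1 kb, r was 0.11 for the Brg1 difference in mTEClo, 0.13 for the Aire difference in mTEChi and 0.28 for the difference between the sorts in Aire+/+.

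The upward lean was concentrated at regions of low signal. Regions were ranked by their mean log2 signal in Aire+/+ mTEChi, and the median log2 fold change was 0.53 in the lowest decile, 0.35 in the fifth, 0.13 in the eighth, 0.05 in the ninth and -0.02 in the highest. In the lowest decile, median log2 signal was 3.46 and 3.94 in the Brg1-/- libraries and 3.13 and 3.34 in the Brg1+/+ libraries. In the highest decile it was 6.60 and 6.60 in Brg1-/-, against 6.61 and 6.62 in Brg1+/+, so the 4 libraries had nearly the same level where signal was strong. Without overlap, Brg1-/- lay above at 30.8% and below at 6.96% of regions in the lowest decile, and above at 16.5% and below at 20.2% in the highest. In mTEClo the median fold change stayed between 0.04 and 0.09 in every decile. The share of low values, under 5 at fewer regions in both Brg1-/- than in both Brg1+/+ mTEChi libraries, moves with this result, and its part in it was not tested. Brg1-/- replicate 2 had the highest median of the 4 libraries in each of the lower 9 deciles.

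**Figure D3:**
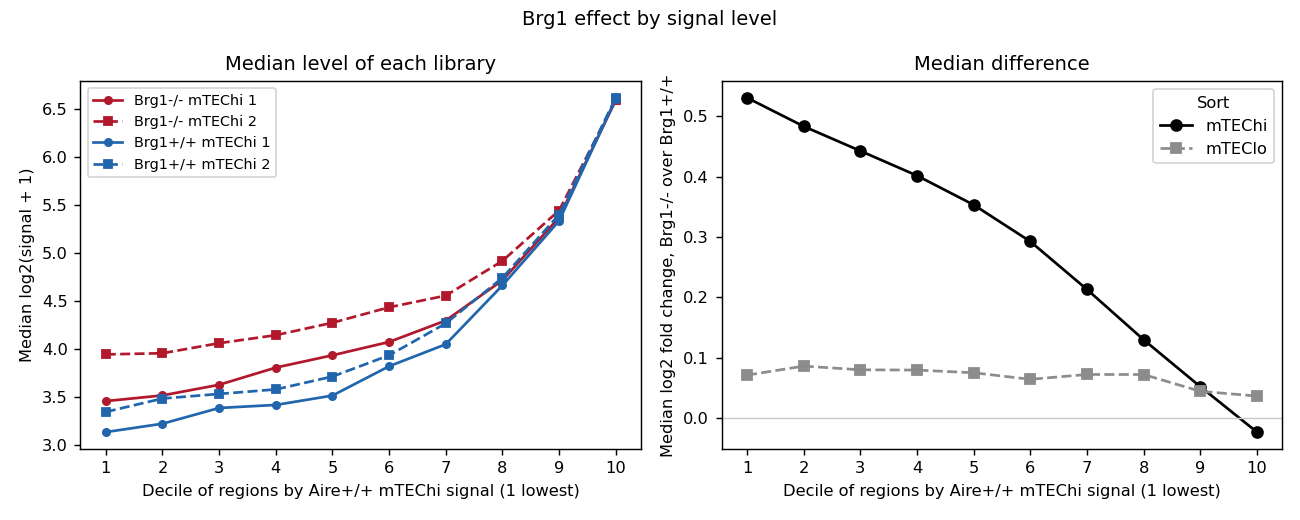
Left, median log2(signal + 1) of each Brg1-/- (red) and Brg1+/+ (blue) mTEChi library in 10 equal groups of regions ordered by Aire+/+ mTEChi signal. Right, the median log2 fold change of Brg1-/- over Brg1+/+ in the same groups, for mTEChi (black) and mTEClo (grey); in mTEChi it declines over the groups to -0.02, and in mTEClo it stays within 0.04 to 0.09.

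Regions that mark the mTEChi state went against the lean. Classes were taken from the Aire line, whose libraries the Brg1 difference does not use. By limma at an adjusted p under 0.05, 12761 of the regions were more open in Aire+/+ mTEChi than in Aire+/+ mTEClo, 8884 were more open in mTEClo, and 197876 were in neither class. In Brg1-/- mTEChi, the median log2 fold change of the mTEChi-higher regions was -0.15, against 0.27 for regions in neither class and 0.17 for mTEClo-higher regions. Of the mTEChi-higher regions, 40.2% had a positive fold change, 13.2% lay above without overlap and 25.4% lay below. Regions in neither class had 63.5% positive, 26.3% above and 10.4% below. The gap between the medians, -0.42 log2 units, was between -0.47 and -0.32 in all alternatives run on it. Signal level differed between the classes as well, and the lean declined with signal. Of the mTEChi-higher regions, 5117 were in the highest decile of signal and 4159 in the ninth, against 16158 and 17062 of the 197876 in neither class. The gap over all regions therefore mixes class with signal level. The median log2 signal of mTEChi-higher regions was 5.26 and 5.39 in Brg1-/- and 5.45 and 5.49 in Brg1+/+ libraries, so each Brg1-/- library was below each Brg1+/+ library. For regions in neither class it was 4.15 and 4.49 in Brg1-/- and 3.85 and 3.99 in Brg1+/+, with the order turned round. No region of the mTEChi-higher class was among the 8 called regions. Of the 8, both chromosome 18 regions and the chromosome 11 region were mTEClo-higher and the other 5 were in neither class. With 12761 and 8884 of 219521 regions in the 2 classes, 8 calls are too few to compare them. Calls and classes also share the estimate of each region's spread.

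The class gap was also present within the highest decile of signal. In the highest decile of Aire+/+ mTEChi signal, the median log2 fold change in Brg1-/- mTEChi was -0.21 at 5117 mTEChi-higher regions, against 0.02 for 16158 regions in neither class and -0.01 for 678 mTEClo-higher regions. Of the 5117, Brg1-/- lay above without overlap at 8.72% and below at 30.7%. Their median log2 signal was 6.06 and 6.19 in Brg1-/- and 6.32 and 6.35 in Brg1+/+. For regions in neither class it was 6.74 and 6.73 in Brg1-/- and 6.70 and 6.70 in Brg1+/+. Set against the regions in neither class of the same library, mTEChi-higher regions stood at -0.61 ± 0.10 log2 units in Brg1-/- and at -0.36 ± 0.02 in Brg1+/+ mTEChi (SD, n = 2 each), a difference of -0.25. The difference of the class medians, -0.22 in log2 fold change, was between -0.28 and -0.17 in all alternatives, including those that rescale the libraries or leave one out. In the ninth decile, the medians were -0.16 for mTEChi-higher regions, 0.10 for neither class and -0.01 for mTEClo-higher regions. No test is given, since regions are not replicates and 2 against 2 libraries cannot pass a permutation test.

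**Figure D4:**
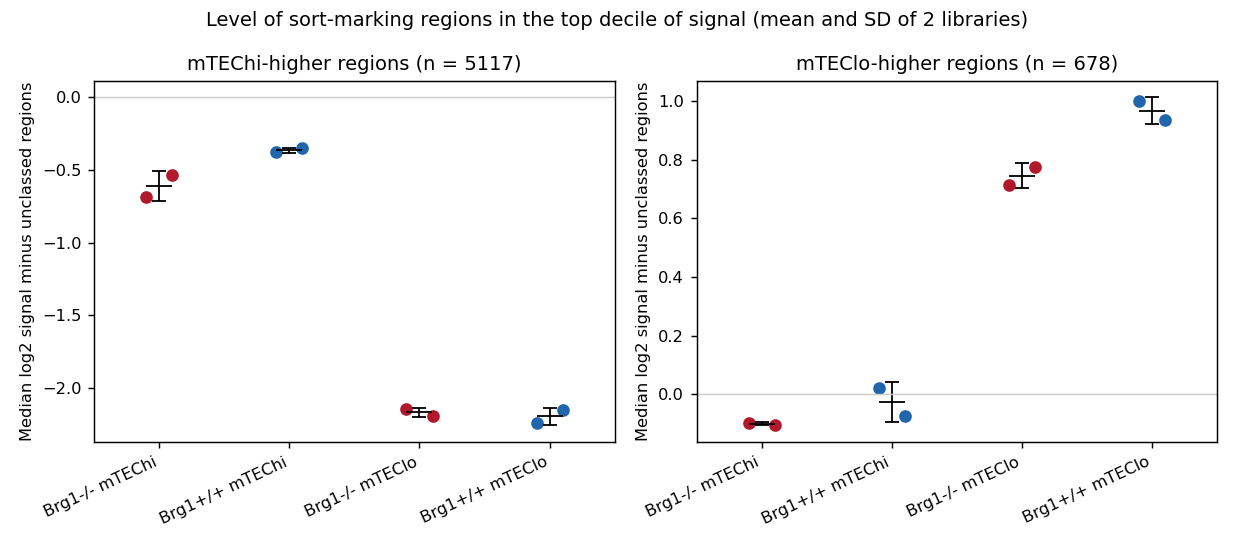
Median log2 signal of sort-marking regions minus that of regions in neither class in the same library, in the highest decile of Aire+/+ mTEChi signal; points are libraries, and bars the mean and SD of 2. Left, at mTEChi-higher regions both Brg1-/- mTEChi libraries (red) lie below both Brg1+/+ mTEChi libraries (blue), while the mTEClo libraries overlap. Right, at mTEClo-higher regions the Brg1-/- mTEClo libraries lie below the Brg1+/+ mTEClo libraries.

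In mTEClo, the mTEChi-higher regions did not differ in this way. In the highest decile, their level against regions in neither class was -2.17 ± 0.03 in Brg1-/- and -2.20 ± 0.06 in Brg1+/+ mTEClo, and the libraries overlapped. The mTEClo-higher regions, in contrast, were at 0.75 ± 0.04 in Brg1-/- and 0.97 ± 0.05 in Brg1+/+ mTEClo, without overlap. In mTEChi these mTEClo-higher regions were at -0.10 ± 0.01 in Brg1-/- and -0.03 ± 0.07 in Brg1+/+, again without overlap and with a smaller difference of -0.07. Over all regions the mTEClo-higher level differed by -0.16 in mTEChi and -0.66 in mTEClo, and in the top 3 deciles by -0.15 in mTEChi and -0.23 in mTEClo, each without overlap. Relative to regions in neither class, the mTEClo-higher class was therefore lower in Brg1-/- in both sorts as the values were deposited. Its own median log2 fold change over all regions in mTEChi was above 0, at 0.17. In mTEChi its gap of median fold changes over all regions, -0.09, became 0.04 after cyclic loess. No difference between the sorts was tested.

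The median fold change in mTEChi was lowest where preference for mTEChi was strongest. In the top 3 deciles of signal, regions were binned by the Aire+/+ log2 difference of mTEChi minus mTEClo. The 235 regions below -2 had a median log2 fold change of -0.09 in Brg1-/- mTEChi, and 2298 regions at -2 to -1 had 0.01. It was 0.07 for 14893 regions at -1 to 0 and 0.07 for 23342 regions at 0 to 1. It was -0.02 for 15906 regions at 1 to 2 and -0.17 for 9183 regions above 2. In mTEClo the medians over the same bins, from below -2 to above 2, were -0.42, -0.33, -0.04, 0.07, 0.16 and 0.17. The lower and upper quartiles over regions lay on either side of 0 in every bin in mTEChi.

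**Figure D5:**
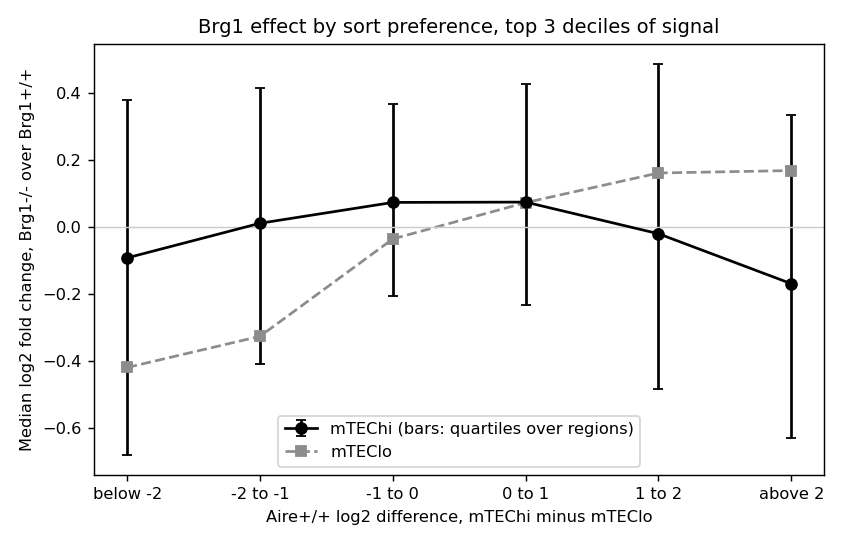
Median log2 fold change of Brg1-/- over Brg1+/+ in mTEChi (black, bars from the lower to the upper quartile over regions) and mTEClo (grey) by the Aire+/+ log2 difference of mTEChi minus mTEClo, in the top 3 deciles of Aire+/+ mTEChi signal. The mTEChi medians are highest near no preference and reach -0.17 above 2, whereas the mTEClo medians run from -0.42 below -2 to 0.17 above 2.

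Fold changes varied less with position along the genome than with signal. The median log2 fold change per chromosome ranged from 0.16 on chromosome 11 to 0.29 on chromosome 6, with 0.26 on chromosome X. Regions with no other tested region within 50 kb had a median of 0.44, those with 6 to 10 had 0.28, and those with more than 20 had 0.17. In the top 3 deciles of signal the range shrank, with 0.11 for regions with up to 2 neighbours, 0.08 for 3 to 10 and 0.02 for more than 10. All 3 values are medians over regions and have no test.

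The Brg1 difference in mTEClo was tested in the same 219521 regions. There 7 regions passed (0.00319%), 1 higher (0.000456%) and 6 lower (0.00273%) in Brg1-/-, and none of them was among the 8 of mTEChi. On chromosome 6 from 122419207 to 122419706, mTEClo signal was 6.16 and 5.24 in Brg1-/- and 52.4 and 39.2 in Brg1+/+ (log2 fold change -2.79, limma adjusted p = 0.00426). The mTEChi libraries there held 26.9 and 30.3 in Brg1-/-, against 94.6 and 92.4 in Brg1+/+ (log2 fold change -1.68, limma adjusted p = 0.525), again with no overlap. On chromosome 11 from 56953864 to 56954363, mTEClo signal was 2.76 and 5.55 in Brg1-/- and 81.7 and 47.6 in Brg1+/+, while mTEChi signal was 18.4 and 20.04 in Brg1-/- and 1.43 and 12.8 in Brg1+/+. No region had a Brg1 effect that differed between mTEChi and mTEClo by limma (0%). The smallest limma adjusted p was 0.374, at the region just given and another of chromosome 11. An unadjusted limma p under 0.05 was found at 13530 of the 219521, where a share of about 0.05 would be so with no difference. Across regions, the fold changes of the sorts correlated with an r of 0.064, and with 0.11 in the top 3 deciles of signal.

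Loss of Aire in the same sort was compared in libraries that share none with the Brg1 difference. No region passed for Aire-/- against Aire+/+ mTEChi by limma (0%), with 15440 of 219521 at an unadjusted p under 0.05. A share of about 0.05 would be so with no difference. The Aire+/+ mTEChi libraries, which also enter the deciles and classes, had the widest replicate spread of any group (median absolute difference 0.80). Aire+/+ replicate 2 and Brg1-/- replicate 2 were almost equally unlike the mTEChi libraries of other groups (median r 0.574 and 0.576). Without Aire+/+ replicate 2, which was the mTEChi library least like those of other groups (median r 0.57), 170 passed higher and 17 lower in Aire-/-. None passed for the Brg1 effect minus the Aire effect (0%), with 16870 of 219521 at an unadjusted p under 0.05. The smallest limma adjusted p was 0.0587. Both regions at that value missed the threshold narrowly. The first was the called chromosome 11 region, whose Aire-line libraries held 37.3 and 49.9 in Aire-/- and 31.9 and 41.7 in Aire+/+ mTEChi, a log2 fold change of 0.24 against -3.55 for Brg1. The second, on chromosome 4 from 115519925 to 115520424, held 42.4 and 35.8 in Brg1-/-, against 87.9 and 87.8 in Brg1+/+ mTEChi. It held 157.0 and 162.8 in Aire-/- and 77.9 and 58.8 in Aire+/+ mTEChi, so the fold changes, -1.15 and 1.23 in log2 units, had opposite signs. Across all regions, the Brg1 and Aire fold changes in mTEChi correlated with an r of -0.095. Without Aire+/+ replicate 2, the Brg1 effect minus the Aire effect passed at 6 regions, and the Brg1 difference itself at 1 higher and 4 lower.

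The rule for inclusion used the mean signal over the 4 compared libraries, without regard to their genotype. It is therefore not independent of the values compared, and a region with little signal in 1 genotype could enter through the other alone. The region just inside, on chromosome 9 from 45145080 to 45145579, had a mean at the threshold of 7.5, with 1.46 and 11.8 in Brg1-/-, against 8.54 and 8.15 in Brg1+/+. The region just outside, on chromosome 15 from 6104828 to 6105327, had a mean of 7.49993, with 7.76 and 5.17 in Brg1-/- and 8.32 and 8.76 in Brg1+/+.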

How the data were processed

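ATAC-seq signal of 16 mouse libraries in 8 groups of 2 was analysed, with groups taken from the labels. The submitters' processing notes name Bowtie2, MACS2 and mm9. The sources used here do not say how the authors defined regions, shifted reads for Tn5, removed duplicates or scaled the deposited signal. The deposited signal values are not whole reads, so depth is unknown and count models were not applied. Starts were taken as counted from 0 in the table and are printed counted from 1; the last region of chromosome 1 ends at 197135460. The gene and promoter tables at hand belong to another build, so gene lists, marker loci, motifs and Smarca4 were not analysed and no sequence is given.

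Signal was taken as log2(signal + 1), which understates changes of low regions. limma 3.58.1 in R 4.3.3 fitted 8 group means over 16 libraries with 8 residual degrees of freedom. Weights were estimated per sort and line, since mTEChi replicates vary more (0.745 for Brg1 mTEChi, 0.798 for Aire mTEChi, 1.15 for Brg1 mTEClo and 1.46 for Aire mTEClo). Variances were moderated with trend and robust settings. Tests were two-sided, with Benjamini-Hochberg adjustment over 219521 regions and a threshold of 0.05. The procedure was also run on simulated data, with random noise drawn from the fitted spread and weights. That run holds no repeated low values or differences in scaling, so it cannot show how these affect the calls. An SD of 2 libraries is imprecise.

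Named regions were, per direction, those called without overlap, then up to 10 by the largest fold change without overlap at or above the median mean, and the 5 with the smallest p at or above the 90th percentile. Beyond these, regions called in mTEClo, the nearest neighbours of called regions and the regions with the smallest p for a difference of effects are named. The regions, classes and tests were chosen with earlier results of these data known. The Aire-line levels beside the called regions were added after the values were seen. Alternatives changed the pseudocount, filter, scaling, weights, libraries in the fit and replicate block.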

Additional observations from a re-analysis of the deposited data

Results flagged for a closer look

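At regions more open in Aire+/+ mTEChi than mTEClo, the level relative to regions in neither class moved in opposite directions in the 2 sorts. Over all tested regions, this level was 1.01 ± 0.15 log2 units in Brg1-/- and 1.55 ± 0.07 in Brg1+/+ mTEChi (SD, n = 2 each), a difference of -0.545, with each Brg1-/- library below each Brg1+/+ library. In mTEClo it was 0.02 ± 0.03 in Brg1-/- and -0.06 ± 0.05 in Brg1+/+, a difference of 0.0805, with each Brg1-/- library above each Brg1+/+ library. The nearest mTEClo libraries were Brg1-/- replicate 2 at 0.0 and Brg1+/+ replicate 2 at -0.022, so the margin was small. In the top 3 deciles of signal it was -0.10 ± 0.04 in Brg1-/- and 0.15 ± 0.01 in Brg1+/+ mTEChi, a difference of -0.255. In mTEClo it was -1.50 ± 0.15 in Brg1-/- and -1.70 ± 0.04 in Brg1+/+, a difference of 0.202. The difference between the sorts was not tested. In the highest decile alone the difference in mTEChi was -0.247, and the mTEClo libraries of the genotypes overlapped. Median signal of regions in neither class was higher in both Brg1-/- mTEChi libraries, and its part in the values over all regions was not tested.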

How the results depend on the processing

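The 8 calls in mTEChi became 3 with a pseudocount of 5, 5 after quantile normalization, 5 after cyclic loess, 4 after re-centring, 49 without weights (28 higher and 21 lower, the 8 included), and 1 (not among the 8), 0 and 0 with only the 8 mTEChi, the 8 Brg1-line or the 4 compared libraries in the fit. Leaving out 1 of the 4 libraries gave 3 to 25. The 7 calls in mTEClo became 158 with a pseudocount of 5, 12 with a filter over all 16 libraries, 11 after re-centring, 1 without weights and 0 with only the Brg1-line libraries. Between the sorts, 0 became 0 to 1 with 1 library left out. For Aire in mTEChi, 0 became 5 after quantile normalization and 33 without weights. For Brg1 minus Aire, 0 became 1 with a pseudocount of 0.5, 2 with a filter at a mean of 15, 4 after quantile normalization, 3 after re-centring, 12 without weights and 0 to 6 with 1 library left out. Without Aire+/+ mTEChi replicate 2, an alternative added after seeing the data, these counts were 5 in mTEChi, 187 for Aire and 6 for Brg1 minus Aire. The cause was not tested.

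The median over regions, 0.24, became 0.00024 after quantile normalization, -0.0105 after cyclic loess and -0.106 after re-centring, and was 0.139 to 0.392 with 1 library left out. The gap of mTEClo-higher regions, -0.0948, became 0.0448 after cyclic loess. Regions without overlap, 55812 above and 25074 below, became 32005 above after re-centring and 40255, 40621 and 48921 below after quantile normalization, cyclic loess and re-centring; these counts and the class gap in the highest decile under alternatives were added after seeing the data. No named region changed sign. Replicate numbers did not pair the samples (r of deviations 0.0048 between genotypes, and -0.017 to 0.032 over 28 pairs of groups). A replicate block left 7 of the 8 calls and gave 8 in mTEClo and 0 in the other 3 comparisons. Unknown depth and repeated low values limit what regions of low signal can show.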
